A study of Mus musculus with 6 samples.

Results

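The teneurins (Tenm1 to Tenm4), the latrophilins (Adgrl1 to Adgrl3) and the FLRT genes (Flrt1 to Flrt3) were taken by gene symbol from a deposited table of 32771 genes, and all 10 were found. The table covers 6 RNA-seq libraries of aorta from wild-type mice. Each mouse was given AngII/BAPN: angiotensin II, which raises blood pressure, and beta-aminopropionitrile, which blocks lysyl oxidase and so the cross-linking of collagen and elastin. An antibody to CTHRC1, a protein secreted by activated fibroblasts, was added in 3 libraries (anti-CTHRC1 replicates 5, 7 and 39). The other 3 had isotype IgG in its place (IgG replicates 14, 18 and 20). Age is not in the labels, nor is it stated that the libraries are from different animals, and p-values here cover the variation among libraries, which may be technical. The family was chosen by the measured difference of Tenm4 between these groups, its CPM and its edgeR call. Every value of this contrast below is therefore a description.

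Teneurins are large membrane proteins whose extracellular part binds latrophilins on a neighbouring cell. Latrophilins are adhesion G protein-coupled receptors, and they also bind FLRT proteins, which carry leucine-rich repeats and have Unc5 receptors as further partners. These contacts are best known from the nervous system, where they guide axons and organise synapses, and in mouse embryos Flrt2 is needed in the epicardium. In the deposited annotation 5 of the 10 genes (Adgrl1, Adgrl2, Adgrl3, Flrt2 and Flrt3) carried the term positive regulation of synapse assembly, which 39 genes of the table had.

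Total counts per library ran from 64556253 to 67859566. The smooth muscle genes Acta2 (1003 to 2587 CPM after the antibody, 1569 to 3766 CPM after IgG) and Myh11 were present in every library, as the tissue label calls for. The level in anti-CTHRC1 replicate 39 fell between those of replicates 5 and 7 for 80.7% of the 4717 tested genes whose log2 CPM in 5 and 7 was over 0.5 apart (0.5 CPM added), and for 5 of the 5 members that far apart. In IgG replicate 14, 266 genes were 4-fold or further above all other libraries (1 CPM added), and no other library had more than 2 such genes. Values without these libraries stand beside the Tenm4 result.

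Upstream sequence is shown for Tenm4, the member with the largest difference between groups, for Tenm3, its most abundant relative, and for Adgrl1, the most abundant member. RefSeq windows on GRCm38.p6 matched 9 of the 10 members, and each line below gives the 250 bases before an annotated start, 5′ to 3′ on the gene's strand, with CG dinucleotides in capitals.
Tenm4, first start (chr7:96170994-96171243, + strand): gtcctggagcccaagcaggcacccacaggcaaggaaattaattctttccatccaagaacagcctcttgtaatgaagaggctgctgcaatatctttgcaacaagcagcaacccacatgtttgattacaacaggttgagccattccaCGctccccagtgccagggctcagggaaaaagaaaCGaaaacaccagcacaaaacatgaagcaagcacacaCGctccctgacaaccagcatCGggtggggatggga
Tenm4, second start (chr7:96211421-96211670, + strand): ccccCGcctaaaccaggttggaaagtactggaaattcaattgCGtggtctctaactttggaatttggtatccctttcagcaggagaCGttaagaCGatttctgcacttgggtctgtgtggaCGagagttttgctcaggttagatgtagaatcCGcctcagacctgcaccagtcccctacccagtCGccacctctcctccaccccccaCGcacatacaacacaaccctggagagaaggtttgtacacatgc
Tenm3 (chr8:48674691-48674940, - strand): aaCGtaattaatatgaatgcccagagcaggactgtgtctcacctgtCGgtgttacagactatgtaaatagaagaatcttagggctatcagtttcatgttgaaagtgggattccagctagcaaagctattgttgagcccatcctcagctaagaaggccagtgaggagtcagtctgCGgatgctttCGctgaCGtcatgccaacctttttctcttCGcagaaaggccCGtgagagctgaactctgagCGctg
Adgrl1 (chr8:83899848-83900097, + strand): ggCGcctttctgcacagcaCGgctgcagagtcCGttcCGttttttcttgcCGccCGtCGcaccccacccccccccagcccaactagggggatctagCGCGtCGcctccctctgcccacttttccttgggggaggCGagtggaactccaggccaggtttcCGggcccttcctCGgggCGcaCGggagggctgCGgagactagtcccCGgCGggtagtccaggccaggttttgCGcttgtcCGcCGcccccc
The first Tenm4 start lies within 2 bases of the gene start in the deposited table, and the second lies 40425 bases inside the gene. The Tenm3 window lies 169261 bases inside the deposited Tenm3 gene, so it is upstream of a RefSeq start and not of the deposited one. The Tenm4 windows held 4 and 8 CG dinucleotides, the Tenm3 window 8 and the Adgrl1 window 21, against a median of 6 over 32851 windows of that length. A GC box (GGGCGG, either strand) occurred 2 times before Adgrl1 and was not among the letters of the Tenm4 and Tenm3 windows, and 32.7% of all windows held one. The TATA box (TATAAA) and the CCAAT box (CCAAT), also searched on both strands, were in none of these 4 windows, and 12.4% and 33.8% of all windows held them. The counts do not show which start was used.

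Tenm4, a teneurin known in mice from embryonic mesoderm and from myelinating cells, was the member that differed most between the groups. It had 26.8, 36.5 and 29.5 CPM in anti-CTHRC1 replicates 5, 7 and 39, against 8.82, 8.56 and 9.23 CPM in IgG replicates 14, 18 and 20. The IgG libraries lay within 1.08-fold of each other, and the lowest antibody library was 2.90 times the highest IgG library. The means were 30.9 ± 5.0 CPM in antibody libraries and 8.87 ± 0.34 CPM in IgG libraries (SD, n = 3 each), which gave 1.80 ± 0.15 (SE) as log2 fold change and an adjusted p of 0.0156 in the edgeR quasi-likelihood test (Benjamini-Hochberg over 19241 genes). Tenm4 (ENSMUSG00000048078) is a protein-coding gene on chromosome 7 (96171246 to 96911093, GRCm38, + strand). The opposite-strand gene Gm8319 within it had 143 to 203 counts in antibody libraries and 169 to 212 counts in IgG libraries, which is 8.78% of the number for Tenm4 in antibody libraries and 31.1% in IgG libraries. Since it is not known if counting used strand, reads where they overlap cannot be told apart. Leaving out any 1 library kept the log2 fold change between 1.67 and 1.89. The edgeR call was lost without anti-CTHRC1 replicate 5 (adjusted p = 0.0739), 7 (adjusted p = 0.143) or 39 (adjusted p = 0.214), without IgG replicate 18 (adjusted p = 0.0786), and without replicates 39 and 14 together (adjusted p = 0.208), whereas DESeq2 called Tenm4 in each of these sets. It was also lost with limma on log2(FPKM + 1), with a value of 0.74 (adjusted p = 0.149), and on log2(FPKM + 0.1), with 1.51 (adjusted p = 0.0655), scales that understate the change of low genes.

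**Figure D1:**
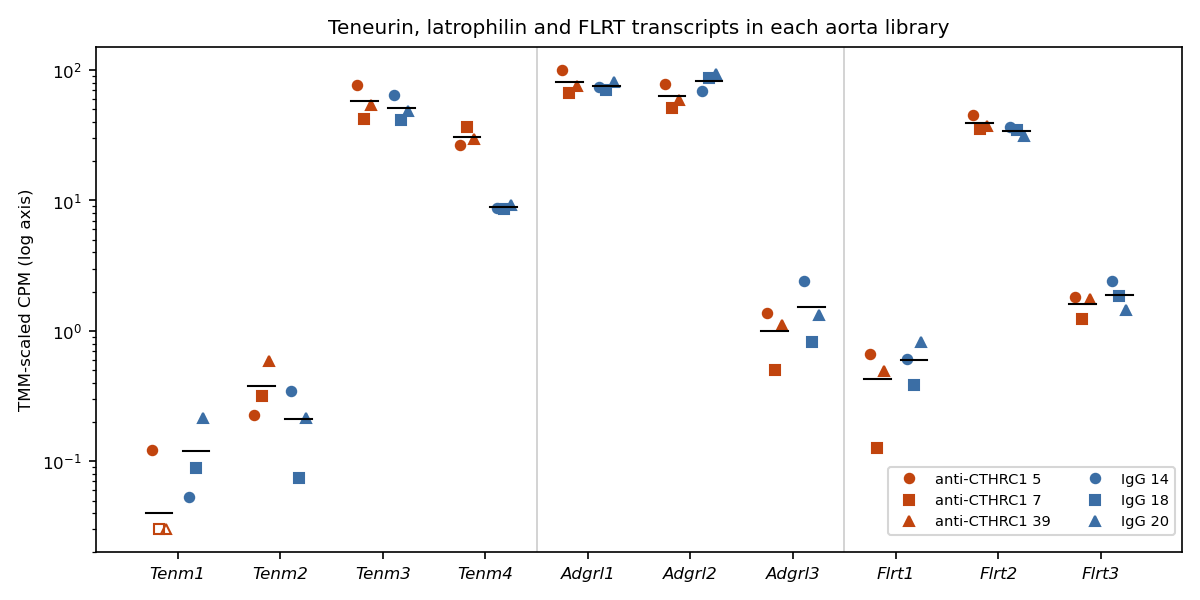
TMM-scaled CPM (log axis) of the 10 genes in each library, with antibody libraries in orange to the left of IgG libraries in blue for each gene and black lines at the group means. Open symbols at the bottom mark Tenm1 in the libraries where it had 0 counts, and Tenm4 shows antibody libraries from 26.8 to 36.5 CPM above IgG libraries from 8.56 to 9.23 CPM.

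Tenm3, the teneurin that in mice maps visual and hippocampal connections, was at 76.7, 42.2 and 54.1 CPM in anti-CTHRC1 replicates 5, 7 and 39, against 64.4, 41.1 and 48.6 CPM in IgG replicates 14, 18 and 20. Anti-CTHRC1 replicate 5 and IgG replicate 14 were the high libraries of their groups, and the ranges of the groups overlapped (log2 fold change 0.17, SE 0.25, adjusted p = 0.788, edgeR). Without anti-CTHRC1 replicate 5 the sign turned, with a log2 fold change of -0.09. Tenm2, a high-affinity partner of Adgrl1, had 15, 20 and 39 counts in anti-CTHRC1 replicates 5, 7 and 39, against 26, 5 and 13 counts in IgG replicates 14, 18 and 20. Its groups overlapped too (log2 fold change 0.82, SE 0.74, adjusted p = 0.619, edgeR). Tenm1, on the X chromosome, had 8, 0 and 0 counts in anti-CTHRC1 replicates 5, 7 and 39, against 4, 6 and 13 counts in IgG replicates 14, 18 and 20, and it was the 1 member that did not pass the filter on low counts. Summed over libraries this was 8 counts in antibody libraries (95% exact Poisson interval 3.45 to 15.8) against 23 counts in IgG libraries (14.6 to 34.5), intervals that cover counting error only. The opposite-strand gene Sh2d1a overlaps part of Tenm1. It had 5, 0 and 14 counts in anti-CTHRC1 replicates 5, 7 and 39, against 30, 32 and 0 counts in IgG replicates 14, 18 and 20. As it is not known if counting used strand, reads where these genes overlap cannot be told apart. A count of 0 allows up to 0.0472 CPM in anti-CTHRC1 replicate 7 and 0.0450 CPM in replicate 39, taking 3 counts as the limit.

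Because both abundant teneurins were measured per length in FPKM, their relative abundance could be compared. Tenm4 made up 14.5%, 29.5% and 20.8% of summed teneurin FPKM in anti-CTHRC1 replicates 5, 7 and 39, against 6.21%, 9.18% and 8.41% in IgG replicates 14, 18 and 20. The shares did not overlap between the groups, and they averaged 21.6 ± 7.54% with the antibody and 7.93 ± 1.54% with IgG (SD, n = 3 each). Tenm3 remained the main teneurin transcript in all 6 libraries, at 2.38 to 5.89 times the FPKM of Tenm4 after the antibody and 9.87 to 15.0 times after IgG. The summed teneurin FPKM was 6.65 ± 1.56 in antibody libraries and 5.38 ± 1.60 in IgG libraries (SD, n = 3 each), and these sums overlapped.

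**Figure D2:**
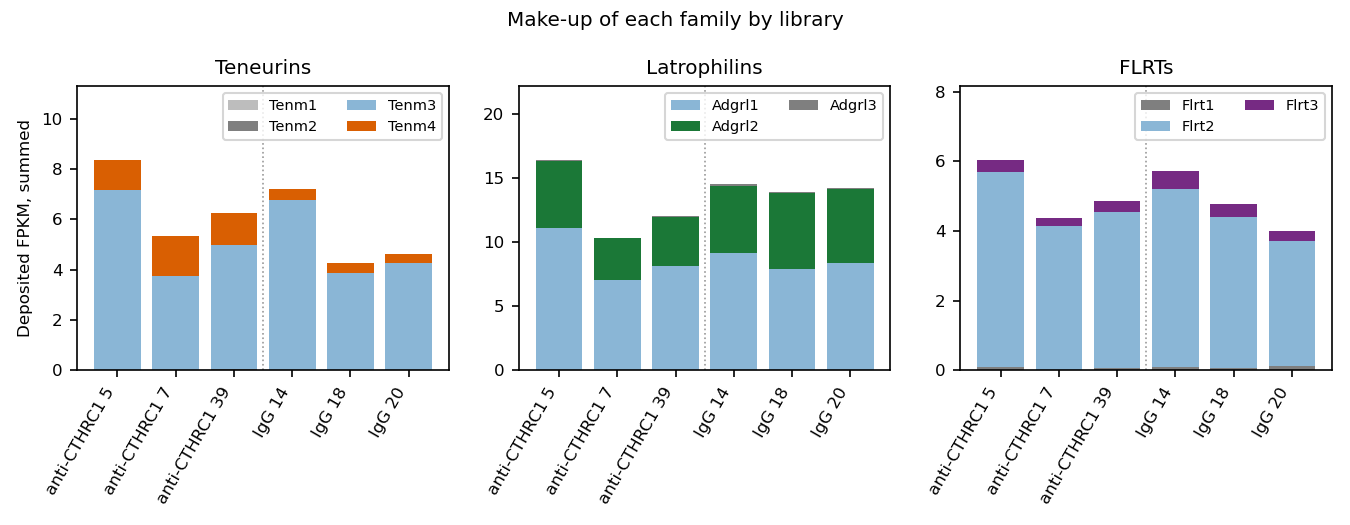
Deposited FPKM of the members stacked by family for each library, with the 3 antibody libraries to the left of the dotted line and the 3 IgG libraries to its right. The Tenm4 segment reaches 14.5% to 29.5% of the teneurin bar in the antibody libraries and 6.21% to 9.18% in the IgG libraries.

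No latrophilin passed the threshold. Adgrl1, a receptor for the spider toxin alpha-latrotoxin, was at 100.2, 66.9 and 74.9 CPM in anti-CTHRC1 replicates 5, 7 and 39, against 73.7, 70.4 and 80.7 CPM in IgG replicates 14, 18 and 20. Antibody libraries lay both above and below the IgG range (log2 fold change 0.11, SE 0.16, adjusted p = 0.791, edgeR), and the sign turned without anti-CTHRC1 replicate 5, to -0.08. Adgrl2, a broadly expressed latrophilin, was at 78.6, 51.3 and 58.6 CPM in anti-CTHRC1 replicates 5, 7 and 39, against 69.3, 87.5 and 92.9 CPM in IgG replicates 14, 18 and 20. Antibody replicates 7 and 39 were below every IgG library and replicate 5 was within the IgG range (log2 fold change -0.41, SE 0.19, adjusted p = 0.335, edgeR). Without anti-CTHRC1 replicate 5 it came to -0.60 and passed in DESeq2 (adjusted p = 0.0246) but not in edgeR (adjusted p = 0.192). Adgrl3, linked in people to attention deficit hyperactivity disorder, had 32 to 90 counts in antibody libraries and 55 to 184 counts in IgG libraries (log2 fold change -0.62, SE 0.56, adjusted p = 0.623, edgeR).

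The balance between the 2 abundant latrophilins was closer within the antibody group than their levels were. Adgrl1 made up 67.5%, 68.2% and 67.6% of summed latrophilin FPKM in anti-CTHRC1 replicates 5, 7 and 39, although the sum itself was 16.4, 10.3 and 12.01 FPKM there. It made up 63.1%, 56.9% and 58.7% in IgG replicates 14, 18 and 20, with sums of 14.5, 13.9 and 14.2 FPKM. The shares did not overlap between the groups (67.8 ± 0.34% in antibody libraries and 59.6 ± 3.19% in IgG libraries, SD, n = 3 each).

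FLRT genes were led by Flrt2, the fibronectin-leucine-rich protein named above for the mouse epicardium, which took 92.8 ± 1.47% of summed FLRT FPKM in antibody libraries and 90.1 ± 1.09% in IgG libraries (SD, n = 3 each). Flrt2 was at 45.4, 35.2 and 36.9 CPM in anti-CTHRC1 replicates 5, 7 and 39, against 36.8, 34.8 and 31.2 CPM in IgG replicates 14, 18 and 20. Anti-CTHRC1 replicate 7 lay within the IgG range and the other antibody libraries above it (log2 fold change 0.19, SE 0.13, adjusted p = 0.501, edgeR). Flrt3, which the early mouse embryo needs, had 120, 78 and 116 counts after the antibody and 182, 124 and 87 counts after IgG (log2 fold change -0.25, SE 0.35, adjusted p = 0.763, edgeR). Flrt1 had 44, 8 and 33 counts after the antibody and 46, 26 and 49 counts after IgG (log2 fold change -0.49, SE 0.68, adjusted p = 0.766, edgeR). Flrt1 lies within Macrod1 and Flrt3 within Macrod2, both on the opposite strand, and these hosts had 1261 to 2048 and 82 to 191 counts per library. The sources used here do not say if reads were counted by strand, so reads from stretches that Flrt1 or Flrt3 shares with its host cannot be told apart.

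In all, 1 of the 9 tested members was called higher and 0 lower by edgeR, where 0.104% of the 19241 tested genes were called higher, 0.213% lower and 0.317% in either direction, and 1 of the 9 had an unadjusted p under 0.05, as did 17.1% of all tested genes. The called member is the one that was known when the family was chosen, so nothing is read from this count. Tenm4 was also the 1 tested member whose groups did not overlap, where 22.0% of tested genes did not overlap, 11.0% in each direction. With antibody replicates 5 and 7 alone, the separation of Tenm4 follows from that of the whole group and adds nothing. Every other tested member overlapped in that set too, where 26.9% of tested genes did not overlap, 13.1% higher and 13.8% lower. Log2 fold changes were positive for 5 tested members and negative for 4. Their median was 0.11, and that of all tested genes was -0.02. Within the antibody group 8 of the 10 were highest in replicate 5 and 8 of the 10 lowest in replicate 7 (Tenm1 tied at 0 with replicate 39). Tenm4 and Tenm2 were lowest in replicate 5. Tenm4 was highest in replicate 7, and Tenm2, at low counts, in replicate 39.

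**Figure D3:**
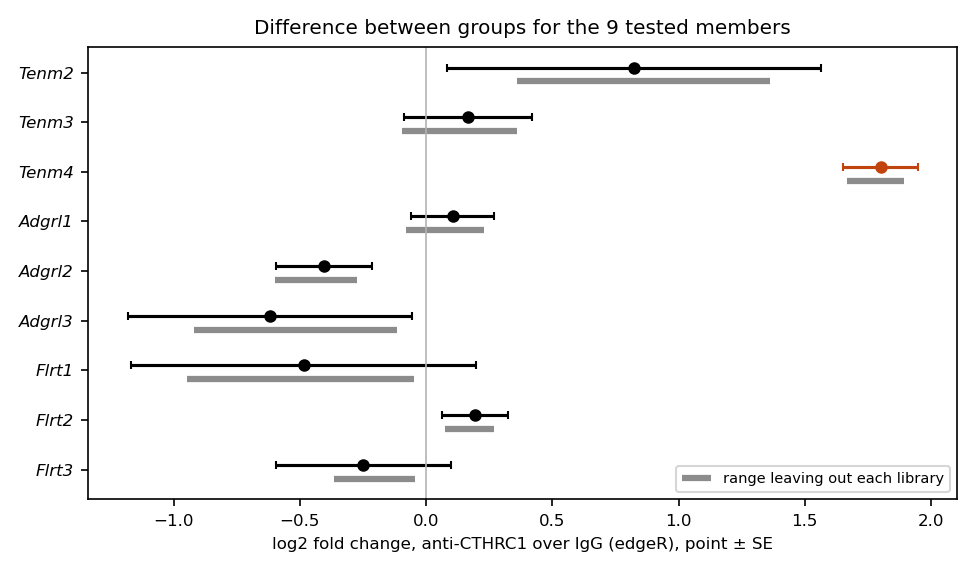
Log2 fold change of the 9 tested members, antibody over IgG, as points with standard errors, and in grey the range when each library is left out in turn. Tenm4, in orange, stays between 1.67 and 1.89, and the grey bars of Tenm3 and Adgrl1 cross 0.

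On the length-scaled FPKM, which allows levels of different genes to be set beside each other, the order of mean levels over the 6 libraries was Adgrl1, Tenm3, Adgrl2, Flrt2, Tenm4, Flrt3, Flrt1, Adgrl3, Tenm2 and Tenm1. Adgrl1 was at 8.76 ± 2.10 FPKM in antibody libraries and 8.48 ± 0.64 FPKM in IgG libraries (SD, n = 3 each). Tenm3 followed with 5.26 ± 1.73 and 4.94 ± 1.56 FPKM in the antibody and IgG groups, Flrt2 with 4.72 ± 0.77 and 4.35 ± 0.75 FPKM, and Adgrl2 with 4.12 ± 1.03 and 5.66 ± 0.39 FPKM. In the antibody libraries the ranges of these 3 genes overlapped, and in the IgG libraries those of Adgrl2 (5.21 to 5.94 FPKM) and Flrt2 (3.60 to 5.10 FPKM) did not. Tenm4 was below all of them in every library, at 1.36 ± 0.19 FPKM in antibody libraries and 0.41 ± 0.03 FPKM in IgG libraries, and in the IgG group it overlapped with Flrt3 (0.38 ± 0.13 FPKM). The 5 genes after Tenm4 were under 1 FPKM in every library, and 4 genes were above 1 FPKM in every library.

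Of 52 related genes on 3 lists, 48 were tested and edgeR called none, with 4 at an unadjusted p under 0.05, where 17.1% of all tested genes were. DESeq2 called 3 of them (Unc5b, Adgrd1 and Adgrg5), where it called 4.86% of the 32619 genes it tested. Those include low genes that the edgeR filter left out, so the 2 shares are not on the same set of genes. Among FLRT partners and netrin receptors, 5 of 12 tested genes had positive values and the median log2 fold change was -0.21. In that list Unc5b, a netrin receptor of blood vessels that also binds FLRT proteins, was at 61.3, 59.2 and 62.5 CPM in anti-CTHRC1 replicates 5, 7 and 39, against 114, 96.6 and 82.9 CPM in IgG replicates 14, 18 and 20. The groups did not overlap, and the log2 fold change of -0.68 (SE 0.13) did not pass in edgeR (adjusted p = 0.106) and passed in DESeq2 (adjusted p = 0.0014). Fgfr3, a fibroblast growth factor receptor, was at 4.69 to 6.29 CPM in antibody libraries and 6.36 to 12.04 CPM in IgG libraries (log2 fold change -0.85, adjusted p = 0.211, edgeR). Neurexins, neuroligins and related synaptic adhesion genes were split, 8 positive and 5 negative of 13, around a median log2 fold change of 0.10. Nrxn2, a neurexin, was at 3.89 to 10.4 CPM in antibody libraries and 2.31 to 5.12 CPM in IgG libraries, and these ranges overlapped.

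Other adhesion receptors of the latrophilins' class had 7 positive and 16 negative values among 23 tested, with a median log2 fold change of -0.19. Adgrd1 was at 99.7 to 118 CPM in antibody libraries and 59.6 to 80.6 CPM in IgG libraries without overlap, a log2 fold change of 0.61 with an adjusted p of 0.145 in edgeR and 0.0127 in DESeq2. Adgrg5 was at 0.13 to 0.30 CPM in antibody libraries and 0.52 to 1.89 CPM in IgG libraries (log2 fold change -2.60, adjusted p = 0.154, edgeR). Adgre1, which encodes the macrophage antigen F4/80, was at 28.0 to 38.2 CPM in antibody libraries and 34.4 to 89.5 CPM in IgG libraries (log2 fold change -0.76, adjusted p = 0.313, edgeR).

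**Figure D4:**
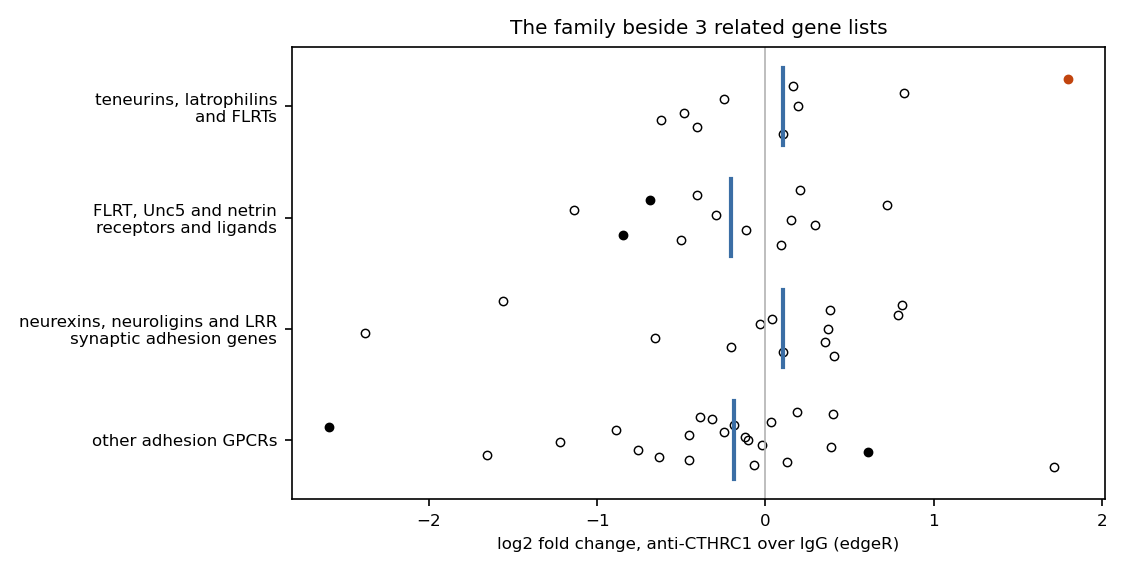
Log2 fold change of each tested gene, antibody over IgG, for the 10-gene family (9 tested) and 3 lists of related genes, with blue lines at the list medians. Filled black points have an unadjusted p under 0.05 and the orange point is Tenm4, the 1 gene past the threshold.

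The 5 named genes whose profile over the 6 libraries was closest to that of Tenm4, among 13604 with a mean of 1 CPM or more, were Orm1, Trarg1, Cd209b, Hcar2 and Hhip. Their root mean square differences from Tenm4 in centred log2 CPM were 0.12, 0.18, 0.23, 0.23 and 0.26. Orm1, which encodes an acute-phase plasma glycoprotein, was at 39.7, 58.2 and 49.4 CPM in anti-CTHRC1 replicates 5, 7 and 39, against 14.9, 11.4 and 14.9 CPM in IgG replicates 14, 18 and 20. The closest member of the family itself was Flrt2, at 0.81.

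The marker sum of adventitial fibroblasts was higher in antibody libraries without overlap, and those of macrophages and neurons were lower without overlap. The other marker sums overlapped between the groups. This split depends on the scale, since abundant genes weigh most in a sum. As a mean of log2 CPM (1 CPM added), adipocyte markers did not overlap. They were at 8.23 to 9.025 in antibody libraries and 7.02 to 8.06 in IgG libraries. Neuron markers overlapped on that scale, at 0.99 to 1.44 in antibody libraries and 1.29 to 2.29 in IgG libraries. In bulk aorta a change in the number of cells of a type and a change in RNA per cell cannot be told apart. Of 12 adipocyte markers 12 had positive log2 fold changes and 6 were higher without overlap (11.0% of all tested genes), and their summed level was 6225 to 11282.5 CPM in antibody libraries and 3133 to 6606 CPM in IgG libraries. None was at 0 in any library. edgeR called 1 of them, Lep, higher, where it called 0.104% of all tested genes higher. Lep encodes leptin and was at 28.2, 45.1 and 27.4 CPM in anti-CTHRC1 replicates 5, 7 and 39, against 8.28, 5.49 and 4.24 CPM in IgG replicates 14, 18 and 20. Within the antibody group 5 of the 12 marker sums (adipocyte, brown adipocyte, heart muscle, macrophage and endothelial) had the order of Tenm4, lowest in replicate 5 and highest in replicate 7, and 4 had the opposite order (smooth muscle, adventitial fibroblast, chondrocyte and mesothelial). Brown adipocyte markers summed to 425 to 1579 CPM in antibody libraries and 512 to 636 CPM in IgG libraries, with 6 of 7 positive.

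Of 8 adventitial fibroblast markers 7 were positive and 6 were higher without overlap (11.0% of all tested genes). They summed to 6571 to 8226 CPM in antibody libraries and 4842 to 5193 CPM in IgG libraries without overlap. The ratio of the group means of this sum was 1.44, and that of the adipocyte sum was 2.04. Of 10 heart muscle markers 8 were positive and 3 called higher (0.104% of all tested genes). Their sum was 269 to 564 CPM in antibody libraries and 52.7 to 802 CPM in IgG libraries. These sums overlapped, with the highest in IgG replicate 14, and 4 of the 10 markers were higher without overlap (11.0% of all tested genes). The called atrial gene Myl7 was at 19.0, 36.7 and 32.3 CPM in anti-CTHRC1 replicates 5, 7 and 39, against 1.09, 2.29 and 1.28 CPM in IgG replicates 14, 18 and 20. Myl4, another called atrial myosin gene, was at 27.8, 44.8 and 37.5 CPM in the antibody libraries, against 6.09, 6.32 and 6.80 CPM in the IgG libraries. Both had no overlap between groups and the order of Tenm4 within the antibody group. Smooth muscle markers, 0 of 8 positive, summed to 2494 to 5632 CPM in antibody libraries and 3527 to 8052 CPM in IgG libraries. Of 10 macrophage markers 0 were positive, 8 were lower without overlap (11.0% of all tested genes) and 1 was called lower (0.213%). They summed to 861 to 1228 CPM in antibody libraries and 1580 to 2150 CPM in IgG libraries. The part of these cell types in the Tenm4 difference was not tested.

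Nerve markers were low. Schwann cell markers, 6 of 8 positive, summed to 50.3 to 58.5 CPM in antibody libraries and 38.4 to 61.3 CPM in IgG libraries. Neuron markers, 0 of 9 tested positive, summed to 29.4 to 30.1 CPM in antibody libraries and 46.0 to 67.7 CPM in IgG libraries. Of the 9, 2 were lower without overlap (11.0% of all tested genes), and Syt1, Th and Dbh were at 0 in at least 1 library. Endothelial markers (5 of 8 positive) summed to 955 to 1185 CPM in antibody libraries and 736 to 1247 CPM in IgG libraries. Chondrocyte markers (2 of 7 positive) summed to 554 to 587 CPM in antibody libraries, against 1013, 185 and 233 CPM in IgG replicates 14, 18 and 20. Skeletal muscle markers (8 of 8 positive) summed to 56.1, 42.0 and 393 CPM in anti-CTHRC1 replicates 5, 7 and 39. In IgG replicates 14, 18 and 20 they summed to 198, 51.3 and 34.0 CPM, so 1 library was far above the others in each group. Mesothelial markers (0 of 6 positive, Krt19 at 0 in at least 1 library) summed to 5.05 to 8.23 CPM in antibody libraries and 2.91 to 102 CPM in IgG libraries.

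**Figure D5:**
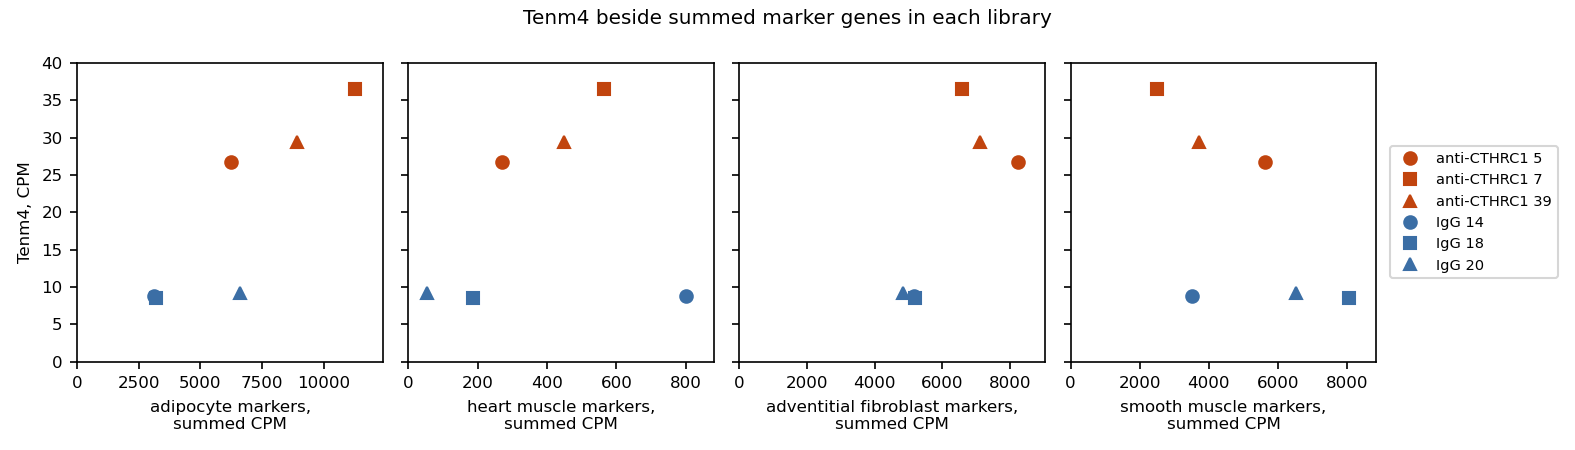
Tenm4 CPM in each library against the summed CPM of 4 marker lists, with antibody libraries in orange and IgG libraries in blue. Adipocyte sums reach 11282.5 CPM in antibody libraries and 6606 CPM in IgG libraries, and the fibroblast sums do not overlap between the groups.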

How the data were processed

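Libraries came from a strand-keeping total RNA kit with paired reads, per the labels' protocols. The deposited table gives counts as whole numbers and FPKM, which scales by gene length and library size, both made by the authors, per the file headers. HISAT2, StringTie, DESeq2 and the build GRCm38 are named in the submitters' processing notes. Versions, annotation release and counting mode are not given in the sources used here. Of counts below 60, 56.3% to 57.4% were even. If both reads of a pair were counted, counting intervals are too narrow.

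The main test was edgeR 4.0.16 (R 4.3.3) on the counts: filtering with filterByExpr, TMM, a robust two-sided quasi-likelihood F-test over 19241 genes and a Benjamini-Hochberg threshold of 0.05. All 6 libraries entered without covariates. Standard errors were derived from F. The FPKM values were used for levels between genes and for 2 alternatives with limma 3.58.1, and DESeq2 1.42.0 was another. The edgeR step was tested on simulated data, where it recovered 34% of 2-fold and 78% of 4-fold changes (100 genes each), with 4 false calls. Many changes of that size could thus be missed. The members, lists, alternatives and rules were chosen with earlier results of these data known. Named genes are the members, up to 4 genes with the smallest p per related list, the 5 genes most like Tenm4 (predicted genes without a name left out) and the first 2 genes of each marker list, printed where a result turns on them. A further list of related genes is not reported here.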

Additional observations from a re-analysis of the deposited data

How the results depend on the processing

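Results were recomputed with other scalings, tests, filters and units and with libraries left out, and DESeq2 with libraries left out was added after the data were seen. No paired analysis was possible because the groups share no replicate number. Genes past the threshold numbered 61, and 1584 with DESeq2, 95 with no filter, 98 with a mean of 5 CPM in 1 group and 234 at a threshold of 0.10. Leaving out 1 library gave 0 to 227 genes with edgeR (0 without anti-CTHRC1 replicate 7 or 39 or IgG replicate 18, with 2054, 1802 and 2468 at an unadjusted p under 0.05) and 732 to 2506 with DESeq2 (1964, 930 and 732 without anti-CTHRC1 replicates 5, 7 and 39, and 1882, 1012 and 2506 without IgG replicates 14, 18 and 20), and leaving out anti-CTHRC1 replicate 39 with IgG replicate 14 gave 0 (2056 at an unadjusted p under 0.05) and 672. Members past the threshold numbered 1, and 0 with limma on log2(FPKM + 1) or log2(FPKM + 0.1), where Tenm4 had 0.74 (adjusted p = 0.149) and 1.51 (adjusted p = 0.0655). The first pseudocount is larger than the IgG values of Tenm4, which shrinks its fold change. With 1 library left out they numbered 0 or 1 in edgeR and 1 or 2 in DESeq2, the second being Adgrl2 without anti-CTHRC1 replicate 5, and 0 in edgeR without anti-CTHRC1 replicate 39 and IgG replicate 14. Tenm4 kept a positive value in all settings, from 0.74 to 1.89. Without anti-CTHRC1 replicate 5 the sign turned for Adgrl1 (-0.0803 in edgeR, -0.0809 in DESeq2) and Tenm3 (-0.0940 and -0.0941), neither called, and the cause was not tested. With 1 library left out their edgeR values reached 0.23 and 0.36, and without both anti-CTHRC1 replicate 39 and IgG replicate 14 Tenm3 had 0.41. Tenm1, Tenm2, Flrt1, Flrt3 and Adgrl3 had at most 184 counts in a library, which limits what could be detected for them.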

Other observations

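The named genes next downstream of Tenm4 on chromosome 7 were Nars2, a mitochondrial tRNA synthetase gene that starts 40412 bases downstream, and Gab2, an adaptor of growth factor receptors that starts 170493 bases downstream. Nars2 was at 6.35, 11.2 and 6.10 CPM in anti-CTHRC1 replicates 5, 7 and 39, against 4.09, 4.79 and 6.07 CPM in IgG replicates 14, 18 and 20. The lowest antibody library was just above the highest IgG library (log2 fold change 0.66, SE 0.30, adjusted p = 0.323, edgeR). Gab2 was at 80.9 to 109 CPM in antibody libraries and 71.4 to 115 CPM in IgG libraries, a log2 fold change of -0.08 (adjusted p = 0.881, edgeR).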
